A study of Mus musculus with 6 samples.

Results

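The genes described here are 10 hepatocyte genes that are read mainly around the central vein of the liver lobule or that depend on Wnt signalling in liver, namely Glul, Oat, Slc1a2, Rhbg, Cyp2e1, Cyp1a2, Gulo, Lect2, Tbx3 and Axin2. They were taken from a list of names that was chosen with earlier results of these data known. Every probe set that the array's annotation gives to 1 of these symbols alone was used, which gave 20 probe sets for the 10 of 18193 genes that the array names in this way. The samples were 6 Affymetrix arrays of total liver RNA, 3 labelled Mig-6 d/d and 3 labelled Mig-6 f/f, all from male mice 8 weeks old on a mixed background, kept on standard chow and fasted for 24 h before the livers were taken. Mig-6 is encoded by Errfi1 and restrains signalling by the receptors of epidermal growth factor. The labels name neither what drove the deletion in d/d nor the cells in which it acted. They also leave unsaid whether arrays stand for separate animals, so the p-values here measure only the spread between these samples, which may be technical.

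Blood crosses the liver lobule from the portal tracts to the central vein, and hepatocytes along that path express different genes. Endothelial cells of the central vein secrete Wnt ligands and R-spondin, which stabilise beta-catenin in the hepatocytes next to them, and beta-catenin with TCF transcription factors then maintains the pericentral programme: glutamine synthesis from ammonia, oxidation of drugs and alcohol, and feedback inhibitors of the Wnt pathway itself. Whole-liver RNA holds no position, so fewer pericentral cells and less RNA per pericentral cell cannot be told apart in any of the results here.

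Promoter sequences of the 10 genes were read for the TCF core motif. RefSeq promoters (GRCm38.p6) were found for 7 of the 10 genes, those of Glul, Oat, Lect2, Cyp2e1, Cyp1a2, Slc1a2 and Axin2; Gulo, Rhbg and Tbx3 were not matched. The motif CTTTGAT, or ATCAAAG on the other strand, was present in the 250 bases before the start site of 2 of the 7, Lect2 and Slc1a2, and in 3.21% of 32851 promoter windows of the same length. A match is a description of letters and not a measured binding site. The list was drawn up to hold genes that depend on Wnt signalling, so its share with a match is not independent of that choice. Any link between the motif and the genotype differences was not tested. Shown 5′ to 3′ on the strand of the gene, with the motif in capitals, are Oat, which had the largest difference among the 10 and no match, and the 2 genes with a match, at chr7:132576399-132576648 (minus strand), chr13:56548539-56548788 (minus strand) and chr2:102706188-102706437 (plus strand).
Oat: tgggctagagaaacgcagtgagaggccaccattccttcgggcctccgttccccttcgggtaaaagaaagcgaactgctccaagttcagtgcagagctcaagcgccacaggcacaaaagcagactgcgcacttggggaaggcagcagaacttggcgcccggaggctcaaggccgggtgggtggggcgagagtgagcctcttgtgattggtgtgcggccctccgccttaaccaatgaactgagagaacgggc
Lect2: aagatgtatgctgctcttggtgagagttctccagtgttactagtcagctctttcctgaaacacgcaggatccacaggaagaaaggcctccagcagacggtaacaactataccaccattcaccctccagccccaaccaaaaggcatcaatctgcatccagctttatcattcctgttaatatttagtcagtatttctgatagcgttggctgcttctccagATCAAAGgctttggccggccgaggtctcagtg
Slc1a2: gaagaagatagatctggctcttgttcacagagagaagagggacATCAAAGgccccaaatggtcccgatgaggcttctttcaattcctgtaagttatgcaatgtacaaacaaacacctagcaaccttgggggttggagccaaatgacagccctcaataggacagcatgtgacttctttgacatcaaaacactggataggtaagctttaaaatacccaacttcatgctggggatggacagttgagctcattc
The match begins 32 bases before the start site in Lect2 and 207 bases before it in Slc1a2, in both cases on the opposite strand.

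The targeted gene differed as labelled. Errfi1 had deposited intensities of 68.05, 61.79 and 59.65 in the d/d livers, against 5371, 5424 and 5686 in the f/f livers, a difference of -6.10 ± 0.10 log2 (adjusted p = 4.91e-08, limma and Benjamini-Hochberg). Median intensities of the arrays lay between 55.6 and 65.4. One array, f/f replicate 3, differed from the rest: it read 3807 on average for the 18S ribosomal RNA controls, 8.36 times the next highest array, and correlated with the rest at a mean of 0.952, against 0.974 to 0.978 for the other 5 arrays. For the 10 genes and for each gene list, values without this array are also given. Known hepatocyte genes were measured at high levels, with 8 markers, Alb, Apoa1 and Ttr among them, summing to 150749 to 153153 in d/d and 145665 to 151469 in f/f.

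All 10 pericentral genes had a lower mean in the d/d livers than in the f/f livers once arrays were normalised, with log2 differences from -0.80 for Oat to -0.0040 for Rhbg and a median of -0.25. Over all 13718 genes tested the median was -0.015, and 53.5% of genes had a negative difference. None of the 10 passed an adjusted p of 0.05 (0 of 10, limma with Benjamini-Hochberg correction over all genes, adjusted p from 0.119 for Oat to 0.994 for Rhbg), where 13 genes, 0.0948% of those tested, passed in all. At an unadjusted p under 0.05 in limma, 4 of the 10 lay lower, Oat, Gulo, Lect2 and Cyp1a2, against 3.07% of all genes. The d/d and f/f groups did not overlap for 6 of the 10, all lower in d/d, namely Oat, Gulo, Lect2, Cyp1a2, Cyp2e1 and Tbx3, against 6.79% of all genes lower in that way. The 10 genes were read from the same 6 RNA samples, so their common sign is not 10 separate observations. Because the list was chosen with earlier results of these data known, the contrasts with all genes are not independent of that choice.

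**Figure D1:**
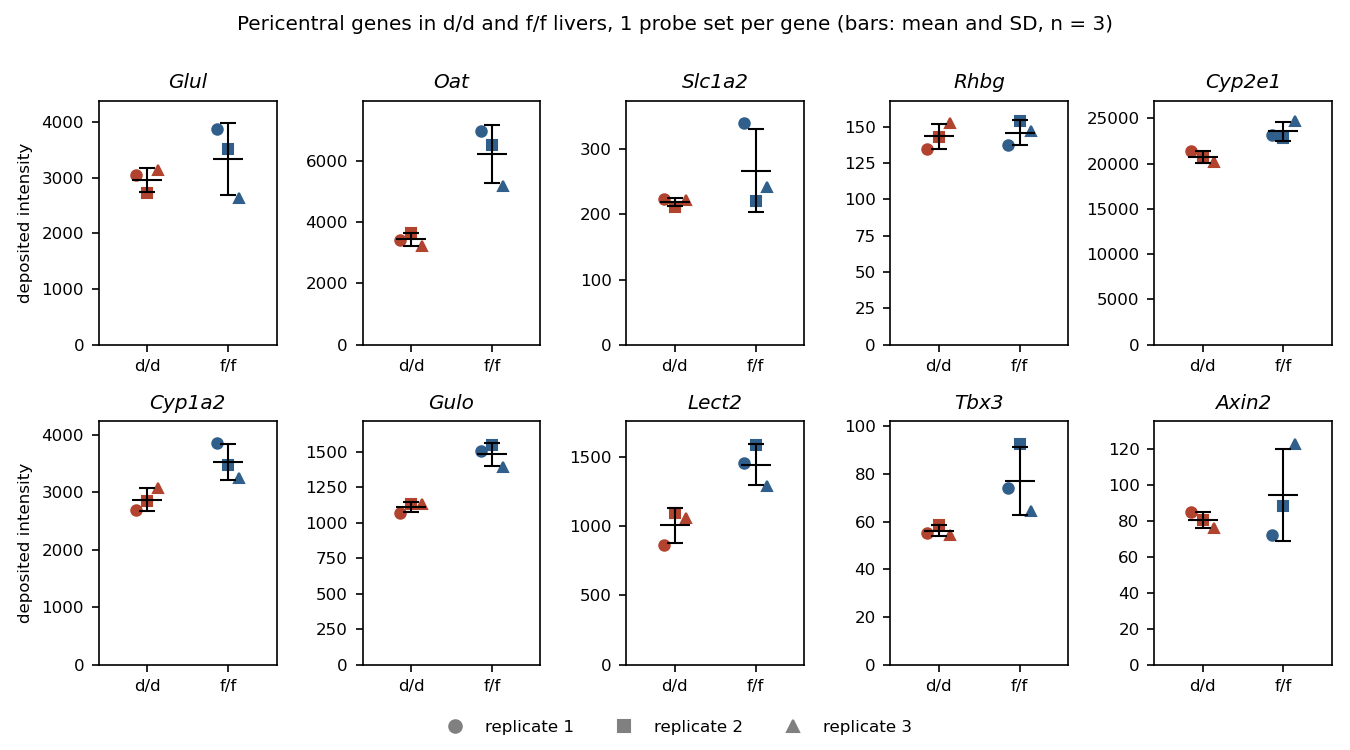
Deposited intensity (vertical axes, linear from 0) of the probe set standing for each of the 10 pericentral genes in the 3 d/d and 3 f/f livers; points are arrays, with a symbol for each replicate number, and black bars are the mean and SD. The d/d points of Oat, Gulo, Lect2, Cyp1a2, Cyp2e1 and Tbx3 lie below every f/f point, and those of Glul, Slc1a2, Rhbg and Axin2 overlap with f/f.

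Among the 4 of the 10 genes that handle nitrogen, Oat, Glul, Slc1a2 and Rhbg, Oat had the largest difference. Oat encodes ornithine aminotransferase, which turns ornithine into a precursor of glutamate and proline in mitochondria. Its deposited intensities were 3432, 3644 and 3229 in the d/d livers, against 6991, 6510 and 5166 in the f/f livers, or 3435 ± 207 and 6222 ± 946 (SD, n = 3 each). Every d/d liver lay well below the lowest f/f liver, and the f/f livers were spread more widely. The difference was -0.80 ± 0.14 log2 with a 95% interval of -1.12 to -0.48, 1.74 times lower, and did not pass (limma, Benjamini-Hochberg adjusted p = 0.119). Without f/f replicate 3, the lowest f/f array for this gene, it was -0.93 ± 0.10 and passed (adjusted p = 0.0110, limma with Benjamini-Hochberg correction), as it did with array weights (adjusted p = 0.00389); over all alternatives the adjusted p ran from 0.00389 to 0.520.

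Glul encodes glutamine synthetase, which joins ammonia to glutamate in the hepatocytes next to the central vein and is the usual marker of that layer. Its brighter probe set read 3044, 2722 and 3129 in d/d, against 3881, 3509 and 2626 in f/f. The groups overlapped because f/f replicate 3 was the lowest of the 6 arrays. The log2 difference was -0.12 ± 0.16 (95% interval -0.49 to 0.25, limma, Benjamini-Hochberg adjusted p = 0.890), -0.28 ± 0.11 without f/f replicate 3 (adjusted p = 0.382), and turned to 0.0019 when f/f replicate 1 was left out. The other probe set of Glul read 1384, 1397 and 1443 in d/d, against 2004, 1628 and 1904 in f/f. On this probe set the groups did not overlap, with a log2 difference of -0.36 ± 0.12 (95% interval -0.63 to -0.10, limma over all 34945 probe sets with Benjamini-Hochberg adjustment, adjusted p = 0.526), so the probe sets of Glul had the same sign but differed on whether the genotypes were separate.

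Slc1a2 encodes a high-affinity glutamate transporter, which in the liver is found in the same layer as glutamine synthetase. Its brightest probe set read 224, 212 and 222 in d/d, against 340, 221 and 242 in f/f. The d/d livers were tightly grouped and the f/f mean was carried by replicate 1, as the difference of -0.24 ± 0.16 (95% interval -0.60 to 0.13, limma, Benjamini-Hochberg adjusted p = 0.794) became -0.059 without that array. Without f/f replicate 3 it was -0.31. The other 4 named probe sets of Slc1a2 had log2 differences of -0.14, 0.035, -0.065 and 0.0089, and the last of these was below the dim limit, an intensity of 48.3 under which lay the lowest 40% of probe sets.

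Rhbg encodes an ammonia transporter of the plasma membrane. It read 135, 143 and 152 in d/d, against 137, 154 and 147 in f/f, and the groups overlapped fully. This gave a log2 difference of -0.0040 ± 0.11, with a 95% interval of -0.25 to 0.24 (limma, Benjamini-Hochberg adjusted p = 0.994). Its sign turned in 3 of 17 alternatives, and without f/f replicate 3 it was -0.042. On the probe sets standing for these 4 genes, the interval of Oat left out 0, while those of Glul, Slc1a2 and Rhbg included it.

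The oxidases of the pericentral zone had negative differences that did not pass. Cyp2e1, the cytochrome P450 that oxidises ethanol and paracetamol, read 21389, 20649.9 and 20167 in d/d, against 23166, 22822 and 24708 in f/f. The groups did not overlap, but the difference was small, at -0.15 ± 0.097 log2 (95% interval -0.38 to 0.068, limma, Benjamini-Hochberg adjusted p = 0.781), and -0.13 without f/f replicate 3. Cyp1a2, the cytochrome P450 that demethylates caffeine and is inducible through the aryl hydrocarbon receptor, read 2685, 2857 and 3075 in d/d, against 3863, 3481 and 3244 in f/f. Here too every d/d liver was below every f/f liver. The log2 difference was -0.27 ± 0.12 (95% interval -0.54 to -0.0067, limma, Benjamini-Hochberg adjusted p = 0.622), and -0.33 without f/f replicate 3.

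Gulo encodes gulonolactone oxidase, the enzyme of the last step of vitamin C synthesis in mice. Its intensities were 1112 ± 36.9 in d/d and 1482 ± 81.3 in f/f (SD, n = 3 each), from single values of 1069.8, 1133 and 1135 in d/d, against 1504, 1551 and 1392 in f/f. Both groups were narrow and lay clearly apart. The log2 difference was -0.39 ± 0.10 (95% interval -0.62 to -0.16, limma, Benjamini-Hochberg adjusted p = 0.286). It moved little when any 1 array was left out, from -0.44 without f/f replicate 3 to -0.37, and passed with array weights only (adjusted p = 0.0380, limma with Benjamini-Hochberg correction, in a range of 0.0380 to 0.880 over the alternatives).

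Lect2, Tbx3 and Axin2 are genes that beta-catenin activates in liver. Lect2, a secreted protein made by hepatocytes and first described as attracting leukocytes, read 860.25, 1097 and 1058 in d/d, against 1453, 1582 and 1291 in f/f. The groups did not overlap, with d/d replicate 1 the lowest array. Their log2 difference was -0.50 ± 0.13 (95% interval -0.81 to -0.20, limma, Benjamini-Hochberg adjusted p = 0.294), -0.58 when f/f replicate 3 was left out and -0.40 without d/d replicate 1, and it passed with array weights (adjusted p = 0.0364, in a range of 0.0364 to 0.891 over the alternatives).

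Tbx3, a T-box transcription factor, had its brightest probe set at 55.4, 58.7 and 54.4 in d/d, against 74.1, 92.5 and 64.6 in f/f. All 3 d/d values lay below the f/f values, but they were close to the dim limit of 48.3. After normalisation the groups were barely apart, with 6.205 the highest d/d value and 6.216 the lowest f/f value. Tbx3 had a log2 difference of -0.34 ± 0.15 (95% interval -0.69 to 0.011, limma, Benjamini-Hochberg adjusted p = 0.650), -0.49 when f/f replicate 3 was left out and -0.20 without f/f replicate 2. Its second probe set had -0.30, and the other 3, all below the dim limit, had -0.050, 0.044 and 0.052.

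Axin2 is a scaffold of the complex that degrades beta-catenin and a feedback target of the pathway in many tissues. It read 84.95, 80.3 and 76.2 in d/d, against 72.0, 88.6 and 123 in f/f. The f/f livers held both the lowest and the highest value, so the groups overlapped. The log2 difference was -0.15 ± 0.14 (95% interval -0.47 to 0.17, limma, Benjamini-Hochberg adjusted p = 0.842) and shrank to -0.030 ± 0.11 without f/f replicate 3, the highest array. Its other probe set, below the dim limit, had 0.035.

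**Figure D2:**
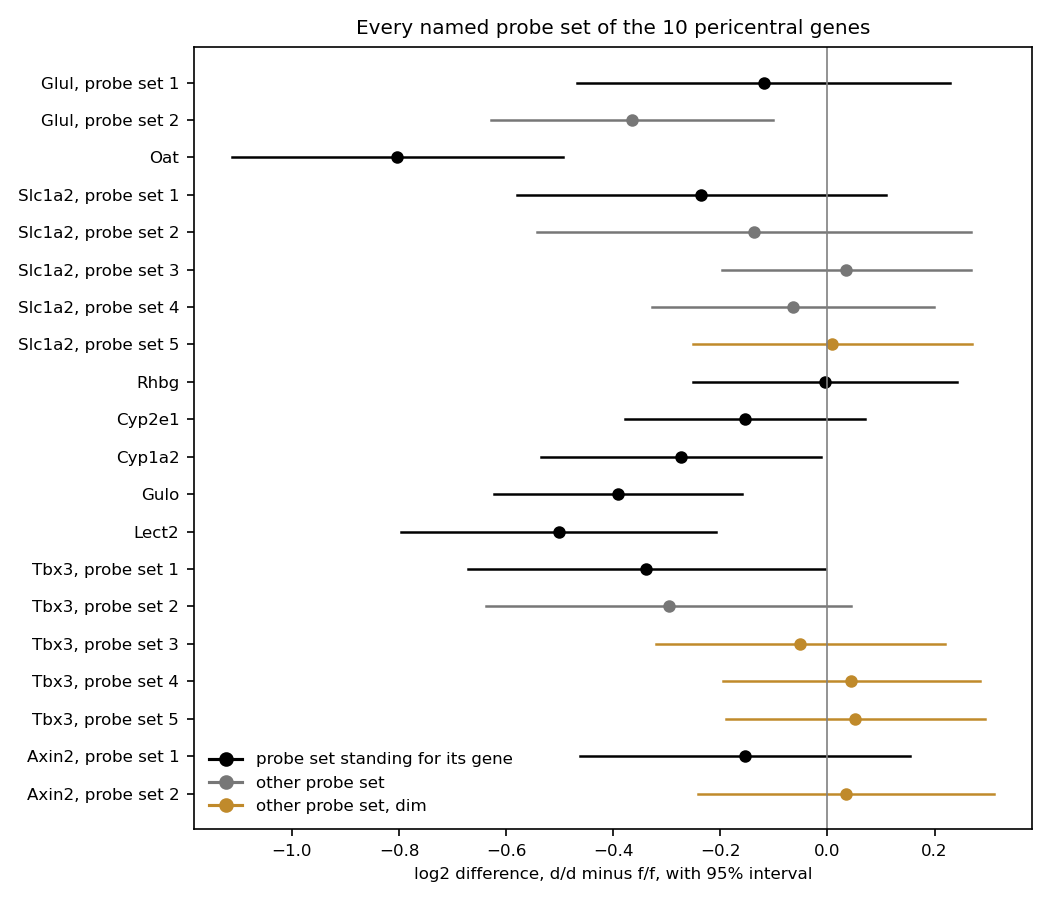
Log2 difference, d/d minus f/f, with its 95% interval from limma (horizontal axis) for each of the 20 named probe sets, numbered within a gene from the brightest. Black marks the probe set standing for its gene, grey another probe set and ochre one below the dim limit; the differences run from -0.80 for Oat to 0.052 for the dimmest probe set of Tbx3, and the ochre ones lie near 0.

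Over the 20 probe sets, 15 had a negative difference and 5 a positive one. Of the 5 below the dim limit, 4 were positive, and the fifth positive one belonged to Slc1a2. None passed over all probe sets (0 of 20, limma with Benjamini-Hochberg correction), where 0.0744% of all probe sets passed. At an unadjusted p under 0.05 in limma, 6 of the 20 lay lower, against 980 lower of all 34945 probe sets (2380 in either direction). Groups did not overlap for 7 of the 20, all lower in d/d, against 6.28% of all probe sets. Probe sets of a gene share its transcripts and are not independent.

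The f/f arrays held the highest value of all 10 genes after normalisation: replicate 1 for 4 genes, replicate 2 for 4 and replicate 3 for Cyp2e1 and Axin2. The lowest value was on a d/d array for 8 genes, 5 of them on replicate 1, and on an f/f array for Glul and Axin2. Relative to each gene's mean over the 6 arrays, the median of the 10 genes was -0.14, -0.16 and -0.10 log2 on the d/d arrays, against 0.26, 0.12 and 0.063 on the f/f arrays. The 2 groups of array medians did not overlap, and f/f replicate 3 was the f/f array nearest to d/d. Without it, all 10 genes still had a negative difference, with a median of -0.32, Oat passed as 1 of 91 genes (0.664% of those tested), and groups did not overlap for 7 genes, against 14.4% of all genes lower in that way with 5 arrays.

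**Figure D3:**
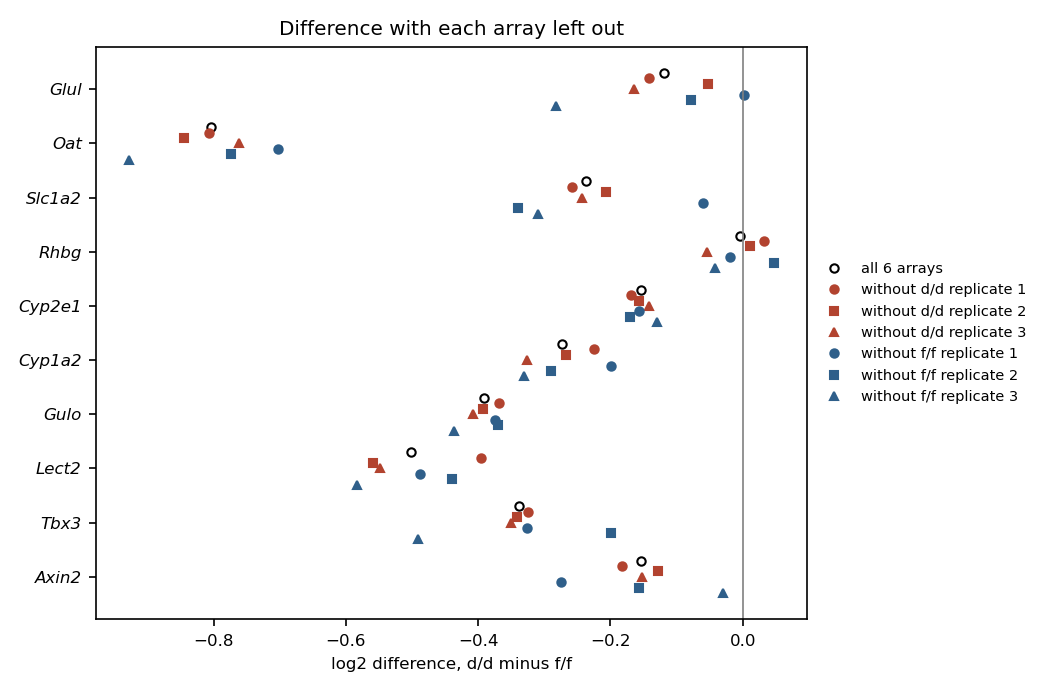
Log2 difference, d/d minus f/f (horizontal axis), of the 10 genes with all 6 arrays (open circles) and with each array left out in turn (red for a d/d array, blue for an f/f array, with a symbol for the replicate number). Oat stays between -0.93 and -0.70 and Gulo between -0.44 and -0.37, while Rhbg and Glul reach or cross 0.

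Other genes known for pericentral expression also lay mostly lower, though this list too was chosen with earlier results of these data known. Of 36 listed, 32 were tested, 24 had a negative difference and 8 a positive one, with a median of -0.20, and of -0.31 over 31 genes without f/f replicate 3; 0 passed (limma with Benjamini-Hochberg correction, 11 at an unadjusted p under 0.05, where 7.84% of all genes had one). Groups did not overlap for 11, with 8 lower and 3 higher in d/d, against 6.79% and 7.9% of all genes. Several Cyp2c and Gstm genes were among the 24 with a negative difference. Genes of a family, read from the same RNA samples, are not separate observations. The most abundant of the list were Mgst1, a microsomal glutathione transferase (-0.072 ± 0.098), Aldh1a1, a retinaldehyde dehydrogenase (-0.21 ± 0.13), and Car3, a carbonic anhydrase (0.52 ± 0.18, adjusted p = 0.497). Named after their values were seen, Cyp7a1, the first enzyme of bile acid synthesis, had -1.01 ± 0.22, Gstm2, a glutathione transferase, -0.92 ± 0.21 and Avpr1a, a vasopressin receptor, -0.59 ± 0.12, while Inmt, a methyltransferase, had 0.93 ± 0.14 and Nrn1, neuritin, 0.69 ± 0.13 (adjusted p = 0.200, 0.236, 0.179, 0.0910 and 0.141, limma with Benjamini-Hochberg correction). Both signs thus occurred among genes whose groups did not overlap. The value of Avpr1a depended on its probe set. Another one stood for it with values as deposited, a common median and a pseudocount of 1, at -0.30, -0.28 and -0.30. Gstm2, Inmt and Cldn2, a tight junction protein also named after its values were seen, passed without f/f replicate 3 (limma, Benjamini-Hochberg adjusted p = 0.0136, 0.0192 and 0.0408), at -1.16, 0.79 and -0.77.

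Periportal genes, expressed at the other end of the lobule, had differences of both signs. Of 30 listed, 27 were tested, with 14 negative and 12 positive differences, 1 at 0, and a median of -0.0024; 0 passed (limma with Benjamini-Hochberg correction, 8 at an unadjusted p under 0.05, where 7.84% of all genes had one). Groups did not overlap for 10, with 3 lower and 7 higher in d/d, against 6.79% and 7.9% of all genes. Without f/f replicate 3, 11 differences were negative and 16 positive, with a median of 0.057, and Afm passed (limma, Benjamini-Hochberg adjusted p = 0.0411). Cps1, which starts the urea cycle, had -0.061 ± 0.10 and Cyp2f2, a periportal cytochrome P450, 0.24 ± 0.12. Gnmt, a glycine methyltransferase, had -0.040 ± 0.10, Serpina1c, a serine protease inhibitor, stood at 29726 ± 843 in d/d and 29622 ± 565 in f/f (SD, n = 3 each), and Ass1, argininosuccinate synthase, had -0.11 ± 0.15 on its only probe set with a single symbol, of low intensity at 88.2 in d/d and 100.2 in f/f. Named after their values were seen, Afm, a vitamin E-binding plasma protein, had 0.76 ± 0.13 and Asl, of the urea cycle, -0.54 ± 0.098 (limma, Benjamini-Hochberg adjusted p = 0.109 and 0.121). Serpina1c was the gene at 0, since quantile normalisation placed it on 14.8178 and 14.8654 alone in both groups. The difference between the pericentral and periportal medians was not tested.

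**Figure D4:**
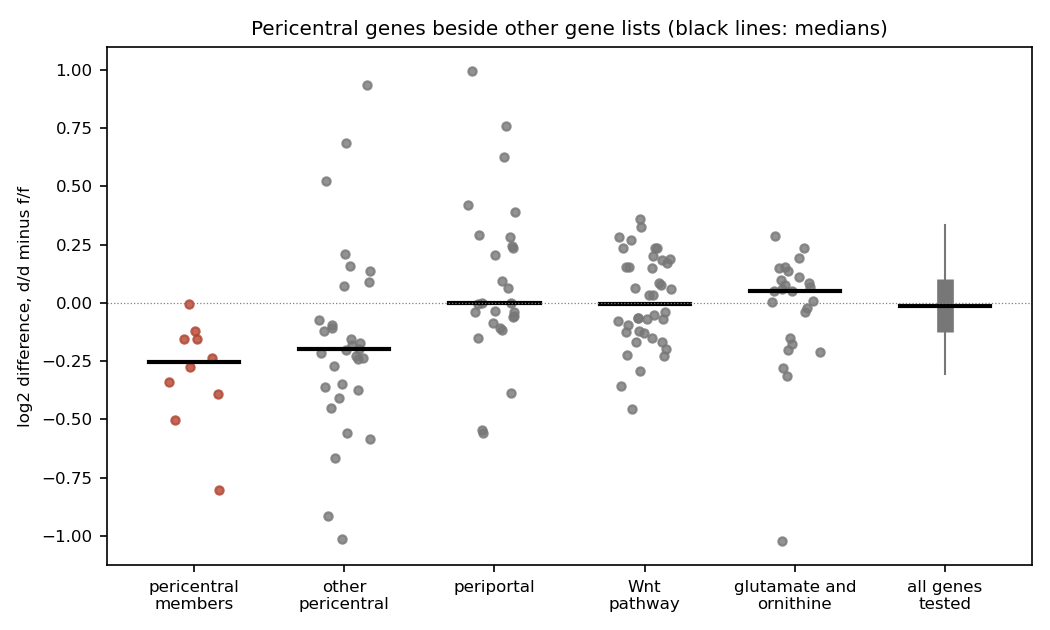
Log2 difference, d/d minus f/f (vertical axis), of each gene tested (points) in the 10 pericentral genes (red) and in 4 other lists (grey), with medians as black lines; for all 13718 genes the thick bar spans the 25th to 75th percentile and the thin line the 5th to 95th. The medians are -0.25 for the 10 genes, -0.20 for other pericentral genes, -0.0024 for periportal genes and -0.0037 for the Wnt pathway.

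Genes of the Wnt pathway itself were divided evenly by sign. Of 54 listed genes, 40 were tested, with 20 negative and 20 positive differences and a median of -0.0037. Of these, 0 passed (limma with Benjamini-Hochberg correction, 2 at an unadjusted p under 0.05, where 7.84% of all genes had one). Groups did not overlap for 4, all higher in d/d, against 7.9% of all genes. When f/f replicate 3 was left out, 39 were tested, with 17 negative and 22 positive differences and a median of 0.025. The ligands and the R-spondin of central vein endothelium were dim: Wnt2 read 70.6 ± 11.3 in d/d and 79.4 ± 12.1 in f/f, Wnt9b 70.6 ± 7.03 and 77.2 ± 16.6, and Rspo3 43.9 ± 9.17 and 55.3 ± 13.2 (SD, n = 3 each). Their log2 differences were -0.12 ± 0.14, -0.079 ± 0.12 and -0.22 ± 0.18. Ctnnb1, beta-catenin, had 0.19 ± 0.11, with 2034 ± 139 in d/d and 1809 ± 166 in f/f (SD, n = 3 each). Its partners Tcf7l2 and Lef1 had 0.28 ± 0.17 and 0.17 ± 0.19, Csnk1a1, a kinase of the degradation complex, 0.032 ± 0.14, and the R-spondin receptor Lgr4 -0.064 ± 0.20. Among feedback inhibitors, Nkd1 had -0.29 ± 0.16, Notum -0.15 ± 0.11, Rnf43 0.23 ± 0.18 and Znrf3 0.061 ± 0.15. Nkd1 and Notum thus had the sign of Axin2, while Rnf43 and Znrf3 did not. Axin2, Nkd1 and Notum were each highest on f/f replicate 3, where Nkd1 read 164, against 102 and 108 on the other f/f arrays. Rnf43 and Znrf3 lay close to the dim limit, with mean intensities of 64.1 and 50.6 in d/d, against 53.1 and 48.5 in f/f. So did Tcf7l2 and Lef1, at 63.2 and 58.0 in d/d, against 50.1 and 48.6 in f/f. Signs of genes this dim do not establish a contrast within the pathway. The sign of Tcf7l2 also depended on its probe set, and that of Lef1 turned when probe sets were averaged. Adjusted p of the 12 pathway genes with differences given here ran from 0.741 to 0.964 (limma with Benjamini-Hochberg correction). Lgr5 and Sp5 were below the dim limit.

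Of the genes around Glul and Oat in glutamate and ornithine metabolism, 25 of 30 were tested, with 9 negative and 16 positive differences and a median of 0.049; 0 passed (limma with Benjamini-Hochberg correction, 4 at an unadjusted p under 0.05, against 7.84% of all genes). Groups did not overlap for 6, with 4 lower and 2 higher in d/d, against 6.79% and 7.9% of all genes, and the median was 0.046 without f/f replicate 3. Got1, the cytosolic aspartate aminotransferase, had the largest difference of this list, with 2686, 3321 and 2600 in d/d, against 5033, 6330.47 and 6837 in f/f. Its groups lay far apart, like those of Oat, at a log2 difference of -1.02 ± 0.14 (limma, Benjamini-Hochberg adjusted p = 0.0673, and 0.0322 without f/f replicate 3). Slc38a4 and Slc38a3, carriers of neutral amino acids and glutamine, had -0.15 ± 0.13 and 0.14 ± 0.13, and Glud1, glutamate dehydrogenase, 0.099 ± 0.11; Gls2, the liver glutaminase, was not analysed here.

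Of 8 genes around Gulo in ascorbate synthesis and transport 7 were tested and 0 passed (limma with Benjamini-Hochberg correction, 1 at an unadjusted p under 0.05, against 7.84% of all genes). Their median was -0.052, and -0.078 without f/f replicate 3. Rgn, the lactonase that acts just before Gulo, had -0.24 ± 0.17, Akr1a1, an aldehyde reductase of the route, -0.052 ± 0.12, and Ugp2, which makes UDP-glucose, 0.38 ± 0.12 (adjusted p = 0.438). Of 12 genes around the aryl hydrocarbon receptor 5 were tested and 0 passed (limma with Benjamini-Hochberg correction, 0 at an unadjusted p under 0.05, against 7.84% of all genes). Their median was 0.030, and -0.032 without f/f replicate 3. The receptor Ahr had 0.087 ± 0.23 and its partner Arnt 0.083 ± 0.13. The receptor's targets Tiparp and Cyp1a1 had 0.030 ± 0.11 and -0.011 ± 0.11, against -0.27 ± 0.12 for Cyp1a2. Cyp1a1 lay close to the dim limit, with mean intensities of 59.3 in d/d and 60.8 in f/f. Its value therefore does not establish a contrast with Cyp1a2. Rgn and Ahr are also counted among the other pericentral genes.

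Markers of other liver cells did not all stand level between the genotypes. Kupffer cell markers, those of liver macrophages, were lower in d/d for 11 of 12, with summed intensities of 2727 to 3500 in d/d and 3248 to 4498 in f/f. Stellate cell markers were lower for 7 of 10 and higher for 3, with sums of 2808 to 3366 in d/d and 3573 to 3880 in f/f. These sums were made up largely of Dcn, at 1679 ± 184 in d/d and 2058 ± 95.2 in f/f (SD, n = 3 each). Dcn was the only stellate marker whose groups did not overlap. Endothelial markers were higher in d/d for 11 of 13, with sums of 2300 to 2584 in d/d and 2054 to 2577 in f/f. Hepatocyte markers were higher for 4 of 8, with Alb at 0. Alb had the normalised value of 15.0804 on all 6 arrays, so quantile normalisation fixed its difference. Its deposited intensities were 35387 ± 612 in d/d and 33895 ± 228 in f/f (SD, n = 3 each). Median log2 differences were -0.27 for Kupffer, -0.11 for stellate, 0.059 for endothelial and 0.027 for hepatocyte markers. That of the Kupffer markers was thus as large as the -0.25 of the 10 pericentral genes. Without f/f replicate 3, 11 of 12 Kupffer and 6 of 10 stellate markers were lower in d/d, and endothelial markers were higher for 5 and lower for 8. The Kupffer median was then -0.21, against -0.32 for the 10 genes. Bile duct, lymphocyte, erythroid and nervous tissue markers had medians of -0.12, -0.11, -0.019 and 0.038 over 3, 6, 3 and 5 genes, and of 0.059, 0.0037, -0.0072 and 0.14 over 4, 6, 3 and 5 genes without f/f replicate 3, and the bile duct markers Krt19 and Krt7 were below the dim limit. None of these markers passed (0 in limma with Benjamini-Hochberg correction), and their part in the pericentral differences was not tested.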

How the data were processed

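The authors deposited 1 linear intensity for each of 45101 probe sets on 6 Affymetrix arrays of biotin-labelled total liver RNA, per the labels' protocols. Their background correction, probe summary and scaling are not given in the sources used here. Symbols came from the annotation of the platform. Intensities were used as log2(intensity + 16) and quantile normalised, since array medians differed by up to 0.185 log2. The brightest probe set stood for each gene and the lowest 40% were left out, which left 13718 genes; all 34945 single-symbol probe sets were also fitted without that filter. The genotypes entered limma 3.58.1 (lmFit, eBayes; R 4.3.3) with no covariate, and Benjamini-Hochberg adjustment was applied to the p-values, with a threshold of 0.05. Every difference is d/d minus f/f of log2(intensity + 16) with the standard error from limma, n = 3 per group, and understates changes of dim genes; whether groups overlap was read on normalised values. The number of arrays limits the precision. The fit was tested on simulated data. Figures were drawn with matplotlib 3.10.9.

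The 10 genes and the other gene lists were chosen with earlier results of these data known. The rule named the 10 genes, Errfi1, 22 set genes and, of each list, those past the threshold and the 3 most abundant. Markers of other cell types are given as lists, with few of them named, and genes picked later are marked. Alternatives covered scaling, pseudocounts of 1 and 64, the dim filter, averaged probe sets, array weights, the variance model, a block for the replicate number, leaving out each array, and a threshold of 0.1.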

Additional observations from a re-analysis of the deposited data

How the results depend on the processing

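Of the 10 pericentral genes, 8 kept a negative difference in all alternatives in which they were tested. Leaving out single arrays, Glul ran from -0.28 to 0.0019, which it had without f/f replicate 1, and Rhbg from -0.054 upward, turning to 0.032 without d/d replicate 1, 0.011 without d/d replicate 2 and 0.048 without f/f replicate 2. Genes called among the 10 were 3 with array weights (Oat, Lect2 and Gulo), where f/f replicate 3 had a weight of 0.178, between 0 and 1 with 1 array left out (Oat without f/f replicate 3), and 0 otherwise in limma. Probe sets called among the 20 were 1 with array weights, 1 with a trended and robust variance and between 0 and 1 with 1 array left out, each time that of Oat. Array weights called 90 genes lower and 125 higher of all 13718 tested. With 1 array left out, 9 to 10 of the 10 genes were negative, against 52% to 54.5% of all genes. In those fits 6 to 7 had groups that did not overlap, against 9.9% to 14.4% of all genes lower in that way. A common median gave 5, against 6.71%. Leaving out the lowest 60% of probe sets dropped Tbx3.

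In all, 13 genes were called, against 20 with probe sets averaged, 21 with a trended and robust variance, 215 with array weights, 21 at a threshold of 0.1, 6 with the replicate block and, leaving out single arrays, 4 (d/d replicate 1) to 91 (f/f replicate 3). Same-numbered arrays had correlations of deviations of -0.0033, -0.14 and -0.47, so the numbers were not taken as pairs; with the replicate block 0 of the 10 genes passed (adjusted p at least 0.288, limma). In the other gene lists calls were 1 with a common median, 1 with a pseudocount of 64, 2 with probe sets averaged, 4 with a trended and robust variance, 14 with array weights, 2 at a threshold of 0.1 and 0 to 5 with 1 array left out. Signs turned without f/f replicate 3 for Ahr (-0.21), Arnt (-0.032), Ass1 (0.063), Csnk1a1 (-0.11) and Wnt9b (0.0065), and with array weights for the same genes (-0.15, -0.038, 0.046, -0.090 and 0.011) and Cyp1a1 (0.0029). With probe sets averaged they turned for Csnk1a1 (-0.062), Lef1 (-0.0027), Tiparp (-0.21), Wnt9b (0.047) and Znrf3 (-0.012). Without d/d replicate 1 they turned for Lgr4 (0.042) and Tcf7l2 (-0.26), without d/d replicate 2 for Cyp1a1 (0.028), Tcf7l2 (-0.25) and Wnt2 (0.016), and without d/d replicate 3 for Cyp1a1 (0.017) and Lgr4 (0.036). Without f/f replicate 1 they turned for Akr1a1 (0.019) and Tiparp (-0.0028), and without f/f replicate 2 for Cyp1a1 (0.027), Lgr4 (0.060) and Tiparp (-0.022). The lowest or highest values of these genes at the other end were -0.27 for Lgr4, -0.20 for Wnt2, -0.078 for Cyp1a1 and -0.20 for Ass1, and 0.43 for Tcf7l2, 0.28 for Ahr, 0.11 for Csnk1a1, 0.16 for Arnt and 0.11 for Tiparp, each with 1 array left out. In each alternative the brightest probe set was chosen anew. On the probe set of the main fit, normalised d/d values of Tcf7l2 ran from 6.26 to 6.36, above the f/f mean of 6.03. Its negative values without d/d replicate 1 or 2 therefore came from another probe set and not from the array left out alone. Causes of the other changes were not tested.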
